A study of Mus musculus with 16 samples.

Results

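Transcripts of the sodium pump beta subunits and of creatine kinase were measured in mouse retina and mouse cortex through 10 probe sets, sets of short oligonucleotides that together measure the RNA of a gene. The probe sets are all those whose platform annotation gives exactly 1 gene symbol and whose symbol is Atp1b1, Atp1b2, Atp1b3, Ckb, Ckmt1 or Ckm. They cover 6 of the 8251 genes with a single symbol on the array, and 10 of its 10833 single-symbol probe sets. Atp1b1, Atp1b2, Ckmt1 and Ckm had 2 probe sets each, and Atp1b3 and Ckb had 1 each. The probe set of a gene with the highest mean over all arrays is called its leading probe set below.

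Total RNA was hybridised to 1-colour Affymetrix arrays, about 10 µg per array, to measure how far the values vary within a platform and between sites. The 4 groups were retina of adult C57/B6 mice at the first site (5 arrays), postnatal day 1 mouse cortex at the first site (5 arrays), the same adult retina at site 2 (3 arrays) and the same newborn cortex at site 2 (3 arrays). The labels name no altered allele and no treatment in any group. The first-site descriptions give pools of 350 mice for retina and 19 mice for cortex, and every array received an aliquot of 1 of these pools, so that the p-values below measure the technical spread between arrays and not the spread between animals. For the cortex donors the descriptions of the samples say C57/B6 whereas the text on the study's design says Swiss-Webster, and they were younger than the retina donors, so tissue, age and any strain difference cannot be told apart. In pooled whole tissue, fewer cells of a type and less RNA per cell cannot be told apart either.

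The sodium pump, Na+/K+-ATPase, exports sodium and imports potassium at the cost of ATP. Its alpha subunit carries the catalytic site, and its beta subunit, a glycoprotein that spans the membrane once, is needed for folding and delivery to the plasma membrane and also contributes to cell adhesion. In photoreceptors the pump of the inner segment removes the sodium that enters the outer segment in darkness, which makes it a main consumer of ATP in the retina. Creatine kinase moves a phosphate group between ATP and creatine: the mitochondrial form charges creatine where ATP is made, and the cytosolic forms recharge ATP where it is spent, at ion pumps among other places.

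Each array was scaled so that its median probe set had an intensity of 100, and levels below are these scaled intensities. Before scaling, the array medians ran from 45.7 to 216. The highest of 13 control probe sets with no added target marked the background of an array, at a scaled intensity between 12.6 and 37.0, and 68.5% to 78.8% of the probe sets lay above it. The tissue labels were checked against marker genes. The summed level of 9 rod photoreceptor genes was 48232 to 56168 in retina against 94.1 to 133 in cortex at the first site, and 40036 to 51347 in retina against 115 to 130 in cortex at site 2. The summed level of 6 genes of newborn cortical neurons was 336 to 456 in retina against 12593 to 14315 in cortex at the first site, and 423 to 459 in retina against 10498 to 22518 in cortex at site 2. Cortex replicate 2 of site 2 had the dimmest array, with a mean correlation of 0.956 with the other arrays of its group.

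Atp1b2, Ckmt1 and Ckb were higher in retina than in cortex at both sites, by 5.0-fold, 3.41-fold and 1.72-fold at the first site on the log2(scaled intensity + 16) scale. Atp1b3 differed by 1.12-fold at the first site and did not pass the test at site 2. The leading probe sets of Atp1b1 and Ckm passed the test at neither site. Of the 10 probe sets, 4 were higher in retina at the first site and 1 was lower (limma, Benjamini-Hochberg adjusted p under 0.05 over all 12422 probe sets), where 22.3% of all probe sets tested were higher and 25.6% lower. At site 2, 3 of the 10 were higher and 0 lower (limma; 1 was lower at an unadjusted p under 0.05), where 16.7% of all were higher and 15.8% lower. The median difference over the 10 probe sets was 0.07 at the first site and 0.12 at site 2 on the log2 scale, beside -0.02 and -0.03 over all probe sets tested.

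**Figure D1:**
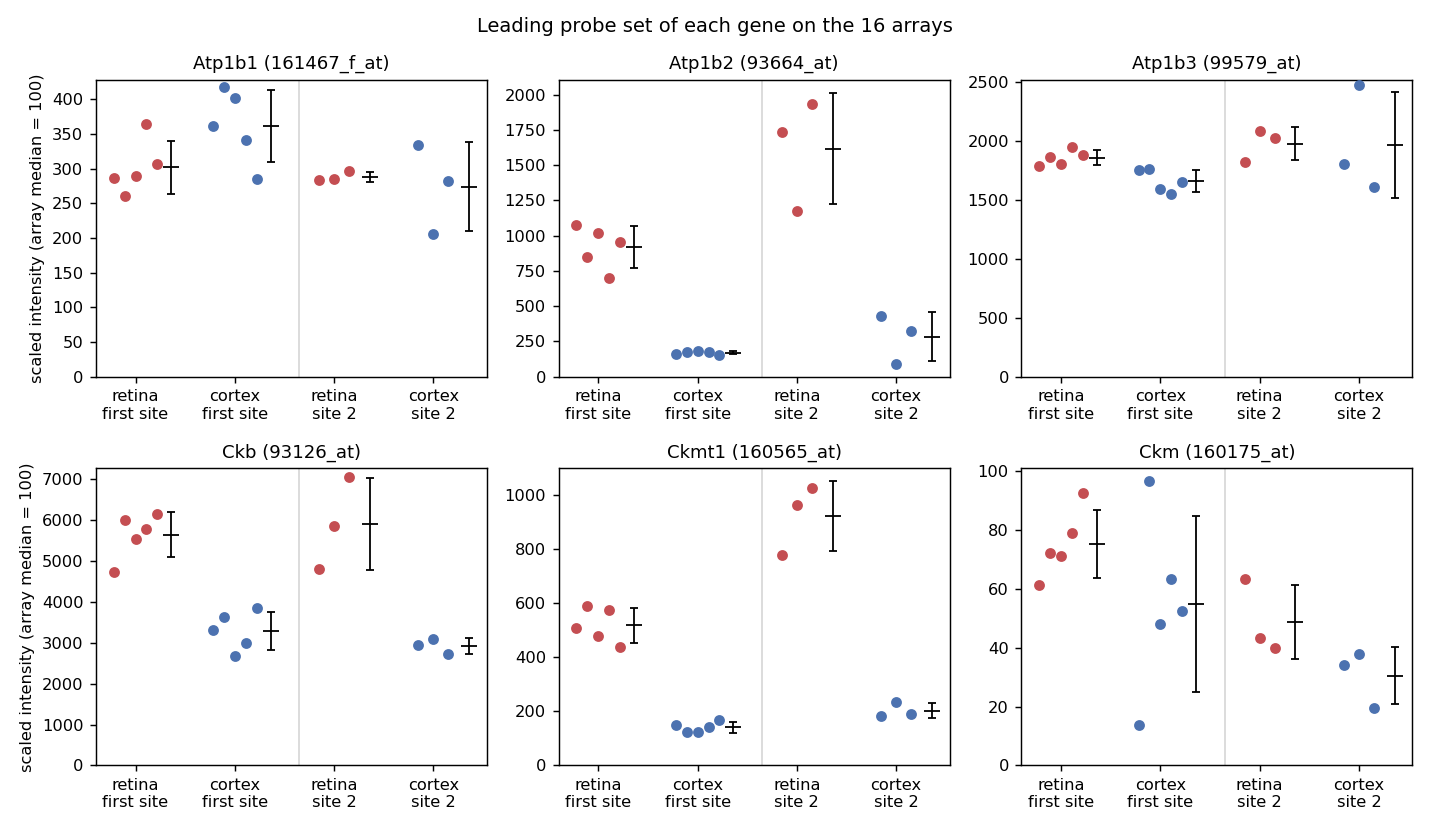
Scaled intensity (vertical axes, from 0; median of each array = 100) of the leading probe set of each gene on the 16 arrays, with retina in red left of cortex in blue at each site, and the mean ± SD of each group as a bar beside its points. For Atp1b2, Ckb and Ckmt1 every retina array lies above every cortex array of the same site, while for Atp1b1 the tissues overlap at both sites.

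Atp1b2, the beta subunit first described as an adhesion molecule of glia, had the largest difference among the 10 probe sets at both sites. In retina at the first site its leading probe set (93664_at) read 1077, 846, 1021, 702 and 957. In cortex at the first site the same probe set read 161, 177, 181, 172 and 156. The lowest retina array thus lay well above the highest cortex array. On the arrays of site 2 it read 1737, 1176 and 1934 in retina, against 433, 93.0 and 326 in cortex. The groups again did not overlap, but the cortex arrays of site 2 spread widely, from 93.0 on replicate 2 to 433 on replicate 1.

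The tissue difference of Atp1b2, retina minus cortex, was 2.32 ± 0.10 (log2, SE) at the first site (adjusted p = 6.1e-10), which placed it at percentile 98.6 of all probe sets tested. At site 2 it was 2.64 ± 0.50 (adjusted p = 0.0063), at percentile 98.8. Without cortex replicate 2 of site 2 the difference was 2.03 (adjusted p = 0.0002). The second probe set of the gene (93665_at) lay at background: it passed the highest no-target control on 0 of 5 retina and 1 of 5 cortex arrays at the first site, and on 2 of 3 retina and 1 of 3 cortex arrays at site 2. It read 6.6 to 9.4 on retina arrays and 5.0 to 28.2 on cortex arrays of the first site, and 6.6 to 26.0 on retina arrays and 9.8 to 26.5 on cortex arrays of site 2. It passed the test at neither site (adjusted p = 0.33 and 0.95).

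Since Atp1b2 is known as a glial gene, 8 measured genes of Mueller glia and astrocytes were read beside it. Their summed level was 10676 to 11870 in retina against 5630 to 5824 in cortex at the first site, and 10073 to 11334 in retina against 5576 to 5761 in cortex at site 2. The genes did not move together, and their median difference was 0.455 at the first site and -0.167 at site 2 (log2). At the first site 4 of the 8 genes were higher in retina (Glul, Rlbp1, Aqp4 and Apoe) and 2 were lower (Gfap and Dbi). The other 2 did not pass the test. On the arrays of site 2, 3 were higher (Glul, Rlbp1 and Apoe) and 5 did not pass. These calls are of leading probe sets. The other Glul probe set averaged 623 against 562 at the first site and 320 against 347 at site 2. It passed at neither (limma, adjusted p = 0.34 and 0.62). At the first site the other Gfap probe set did not pass (adjusted p = 0.35), while the other Aqp4 probe set did (1.38, adjusted p = 3.9e-08). Rlbp1 averaged 2835 in retina against 320 in cortex at the first site, and Dbi 870 against 1661. Aqp4 averaged 1083 against 345 there, and 297 against 356 at site 2. Over all 8251 genes, 25.8% were higher and 28.5% lower at the first site, and 19.9% were higher and 17.4% lower at site 2. The part of glial transcripts in the difference of Atp1b2 was not tested.

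Atp1b1, the most widely used beta subunit, gave readings that overlapped between the tissues. Its leading probe set (161467_f_at) read 287, 261, 290, 364 and 307 in retina at the first site, against 362, 417, 401, 342 and 285 in cortex. The site 2 readings were 283, 284 and 296 in retina, against 334, 206 and 282 in cortex. The retina arrays of site 2 lay within a narrow band that the cortex arrays straddled. The difference was -0.25 ± 0.11 (log2, SE) at the first site, with a 95% interval from -0.48 to -0.01 and an adjusted p of 0.079. It passed the test when retina replicate 4 (-0.31, adjusted p = 0.025) or cortex replicate 5 (-0.32, adjusted p = 0.015) was left out, and when only the probe sets above the median signal were tested (adjusted p = 0.049). At site 2 the difference was 0.09 ± 0.18, with an interval from -0.33 to 0.51 and an adjusted p of 0.75, and without cortex replicate 2 it was -0.09. The suffix f of this probe set marks probes that may match related transcripts.

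The second Atp1b1 probe set (160500_at) read near background. It lay above the highest no-target control on 2 of 5 retina and 1 of 5 cortex arrays at the first site, and on 0 of 3 retina and 2 of 3 cortex arrays at site 2. Its difference was -0.01 ± 0.17 at the first site (adjusted p = 0.96) and -0.76 ± 0.27 at site 2 (log2, SE, adjusted p = 0.073). At site 2 the test was passed without cortex replicate 3 (-1.08, adjusted p = 0.0055), in the fit over all 16 arrays (-0.76, adjusted p = 0.025) and with the replicate number as a block (adjusted p = 0.029). The 2 probe sets of the gene thus gave no shared tissue difference.

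Atp1b3, a beta subunit found in many tissues, was nearly level. It read 1790, 1864, 1803, 1949 and 1883 in retina at the first site, against 1749, 1765, 1589, 1549 and 1652 in cortex, and the groups did not overlap. The site 2 readings were 1821, 2086 and 2021 in retina, against 1807, 2470 and 1610 in cortex, where the cortex arrays spanned the retina arrays. The difference at the first site was 0.16 ± 0.06 (log2, SE, adjusted p = 0.03), and at site 2 it was 0.03 ± 0.19, with an interval from -0.42 to 0.48 (adjusted p = 0.93). The call at the first site was not stable. It was lost without retina replicate 2 (adjusted p = 0.057) or 4 (0.067), and without cortex replicate 3 (0.062), 4 (0.076) or 5 (0.053). It was also lost without scaling (0.21), without the intensity trend (0.06) and in the fit over all 16 arrays (0.2). Atp1b3 was also the member with the tightest replicates at the first site, with a within-group SD of 0.05 in retina and 0.08 in cortex on the log2 scale, where the median over all probe sets was 0.16 in retina and 0.17 in cortex.

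For the creatine kinase genes, whose promoters are shown first, the RefSeq table of assembly GRCm38.p6 gives 1 start for Ckb, 2 for Ckmt1 and 1 for Ckm, each with 250 bases before the start and 50 after it. Promoters of Ckb (chr12:111672289-111672588, minus strand), Ckmt1 (chr2:121357526-121357825 for start 1 and chr2:121358360-121358659 for start 2, both plus strand) and Ckm (chr7:19410844-19411143, plus strand) are printed because Ckb and Ckmt1 were both higher in retina while the leading probe set of Ckm did not pass the test. Capitals mark every match, on either strand, of 4 motifs. These are the TATA box, searched as TATAAA, the CCAAT box, searched as CCAAT, the E-box, searched as CANNTG, and the core bound by Crx and Otx homeodomain proteins, searched as TAATCC.
Ckb: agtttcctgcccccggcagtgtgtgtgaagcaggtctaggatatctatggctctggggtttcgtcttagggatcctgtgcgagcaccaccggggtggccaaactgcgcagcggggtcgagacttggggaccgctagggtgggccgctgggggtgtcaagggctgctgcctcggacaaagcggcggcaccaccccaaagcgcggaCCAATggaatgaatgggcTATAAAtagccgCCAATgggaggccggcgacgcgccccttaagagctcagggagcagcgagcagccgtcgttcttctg
Ckmt1 start 1: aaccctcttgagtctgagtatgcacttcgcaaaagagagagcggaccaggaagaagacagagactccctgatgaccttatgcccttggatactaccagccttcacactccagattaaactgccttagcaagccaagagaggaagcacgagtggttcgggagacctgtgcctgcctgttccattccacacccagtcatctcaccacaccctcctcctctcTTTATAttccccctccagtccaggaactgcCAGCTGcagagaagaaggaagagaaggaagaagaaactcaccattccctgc
Ckmt1 start 2: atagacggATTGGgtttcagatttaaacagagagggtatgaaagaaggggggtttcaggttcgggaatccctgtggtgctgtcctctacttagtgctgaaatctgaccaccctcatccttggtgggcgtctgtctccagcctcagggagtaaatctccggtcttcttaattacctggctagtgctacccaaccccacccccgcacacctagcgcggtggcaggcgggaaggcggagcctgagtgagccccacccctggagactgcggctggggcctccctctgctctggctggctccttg
Ckm: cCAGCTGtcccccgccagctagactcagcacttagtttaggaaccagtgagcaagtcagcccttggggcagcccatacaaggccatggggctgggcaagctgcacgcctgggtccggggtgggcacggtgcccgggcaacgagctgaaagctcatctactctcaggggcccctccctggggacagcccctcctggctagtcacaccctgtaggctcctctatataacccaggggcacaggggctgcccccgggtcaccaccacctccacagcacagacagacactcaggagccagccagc
The Ckb window held 1 TATA box and 2 CCAAT boxes. The start 1 window of Ckmt1 held 1 TATA box, read on the opposite strand, and 1 E-box, and the start 2 window held 1 CCAAT box. The Ckm window held 1 E-box. The Crx and Otx core was found in none of these 4 windows, and no match overlapped another. Among 32851 promoter windows of the same length, the TATA box letters were present in 13.6%, the CCAAT box in 37.4%, the E-box in 72.3% and the Crx and Otx core in 7.06%. The exact letters TATAAA were thus present in 1 window each of Ckb and Ckmt1. The Ckm window held the similar stretch tatataa, which a search for exact letters does not count. These matches therefore do not set Ckm apart, and the letters are a description of these windows only.

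Ckb, the cytosolic creatine kinase of brain, read 4733, 6000, 5542, 5785 and 6148 in retina at the first site. In cortex at the first site it read 3305, 3625, 2670, 2985 and 3850. The readings at site 2 were 4791, 5862 and 7041 in retina, against 2945, 3096 and 2719 in cortex. Every retina array lay above every cortex array of its site, and the retina arrays of site 2 were the most scattered group. The difference was 0.78 ± 0.11 (log2, SE, adjusted p = 3.6e-05, percentile 90.2 of all probe sets) at the first site. At site 2 it was 0.99 ± 0.21 (adjusted p = 0.011, percentile 91.1). The call at site 2 was lost without retina replicate 2 (0.99, adjusted p = 0.055) or 3 (0.86, adjusted p = 0.051), and without scaling of the arrays (0.97, adjusted p = 0.43).

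Ckmt1, the mitochondrial creatine kinase found in brain and many other tissues, read 507, 588, 480, 576 and 437 in retina at the first site on its leading probe set (160565_at). In cortex at the first site it read 148, 123, 123, 141 and 169. Site 2 gave 777, 965 and 1026 in retina, against 185, 233 and 189 in cortex. The lowest retina array of each site was above the highest cortex array of either site. The difference was 1.77 ± 0.10 (log2, SE, adjusted p = 8e-09, percentile 97.5) at the first site and 2.10 ± 0.15 (adjusted p = 7.4e-05, percentile 97.9) at site 2. It passed the test under every alternative run at both sites, with values between 1.57 and 1.87 at the first site and between 1.94 and 2.22 at site 2.

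The second Ckmt1 probe set (161495_r_at) did not show this difference. It read 63.4, 60.6, 58.9, 65.5 and 95.8 in retina at the first site, against 88.7, 85.8, 97.9, 61.2 and 73.7 in cortex, and 79.3, 76.3 and 42.9 in retina at site 2, against 64.4, 61.9 and 45.1 in cortex. The tissues overlapped at both sites, although every reading was above the highest no-target control. The difference was -0.20 ± 0.15 at the first site (interval -0.52 to 0.12, adjusted p = 0.29) and 0.15 ± 0.25 at site 2 (interval -0.43 to 0.72, adjusted p = 0.71). The suffix r marks a probe set for which the usual rules of probe choice were relaxed. The call for Ckmt1 therefore rests on 1 of its 2 probe sets.

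Ckm, the cytosolic creatine kinase of muscle, was dim in both tissues. Its leading probe set (160175_at) read 61.1, 72, 71.1, 79.0 and 92.5 in retina at the first site, against 13.7, 96.8, 48.0, 63.3 and 52.3 in cortex. Site 2 gave 63.2, 43.2 and 39.8 in retina, against 34.2, 37.9 and 19.5 in cortex. Cortex at the first site ranged from the lowest to the highest of the 10 readings there, while at site 2 the groups did not overlap. The difference was 0.48 ± 0.28 (log2, SE, interval -0.12 to 1.08, adjusted p = 0.18) at the first site and 0.48 ± 0.23 (interval -0.07 to 1.03, adjusted p = 0.17) at site 2. Without cortex replicate 2 of the first site it was 0.68 and passed the test (adjusted p = 0.044), and without cortex replicate 1 it was 0.20 (adjusted p = 0.41).

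The second Ckm probe set (161569_f_at) lay no higher than the top no-target control on all retina arrays of both sites and on all cortex arrays of site 2. On the cortex arrays of the first site it read 21.2, 13.8, 20.1, 14.4 and 23.3, of which 1 of 5 exceeded that control. It passed the test as lower in retina at the first site (-0.61 ± 0.10, log2, SE, adjusted p = 2e-04), and no fold is given because both tissues lay around background. At site 2 the difference was -0.01 ± 0.09 (adjusted p = 0.97). Readings of Ckm were set beside 21 skeletal muscle genes, since muscle tissue attached to a dissected eye could carry this transcript. At the first site 4 of them were higher in retina (Mylpf, Tnnt1, Pygm and Eno3), 2 were lower (Acta1 and Ryr1) and 15 did not pass the test; at site 2 the counts were 3, 2 and 16. The shares over all genes were 25.8% higher and 28.5% lower at the first site, and 19.9% and 17.4% at site 2. Whether the counts of this list differ from these shares was not tested. Their summed level was 1815 to 2195 in retina against 1148 to 1254 in cortex at the first site, and 2582 to 2821 in retina against 1008 to 1209 in cortex at site 2. Much of the gap in this sum came from Pygm and Tnnt1. Pygm averaged 562 in retina against 34.2 in cortex at the first site, and 1127 against 26.9 at site 2. Tnnt1 averaged 332 against 25.5 and 474 against 28.8 on its leading probe set, whereas Acta1 averaged 104 against 175 and 83.9 against 170. The other Tnnt1 probe set, above the top no-target control on all 16 arrays, averaged 135 against 114 and 87.7 against 78.7. It passed the test at neither site (limma, adjusted p = 0.098 and 0.6), so the gap of Tnnt1 rests on its leading probe set. The median difference of the 21 genes was -0.007 at the first site and -0.054 at site 2 (log2). The leading probe sets of 10 of the 21 genes exceeded the top no-target control on all 16 arrays and those of 8 on some arrays. The other 3 (Myh1, Myh2 and Tnni2, contractile protein genes of fast skeletal muscle) exceeded it on none. The part of muscle transcripts in the Ckm readings was not tested.

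**Figure D2:**
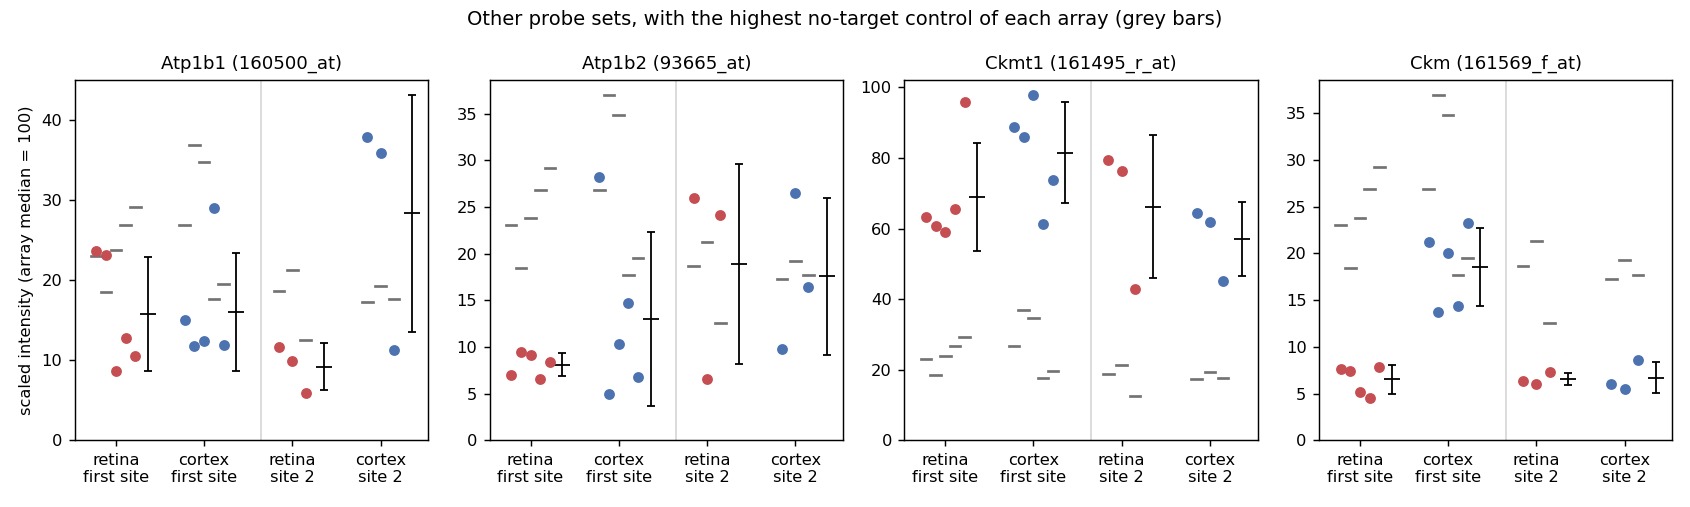
Scaled intensity (vertical axes, from 0; median of each array = 100) of the second probe sets of Atp1b1, Atp1b2, Ckmt1 and Ckm on the 16 arrays, retina in red left of cortex in blue at each site, with the mean ± SD of each group. Grey bars give the highest no-target control of each array: the Ckmt1 probe set lies above it throughout, while the other 3 lie around or under it.

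**Figure D3:**
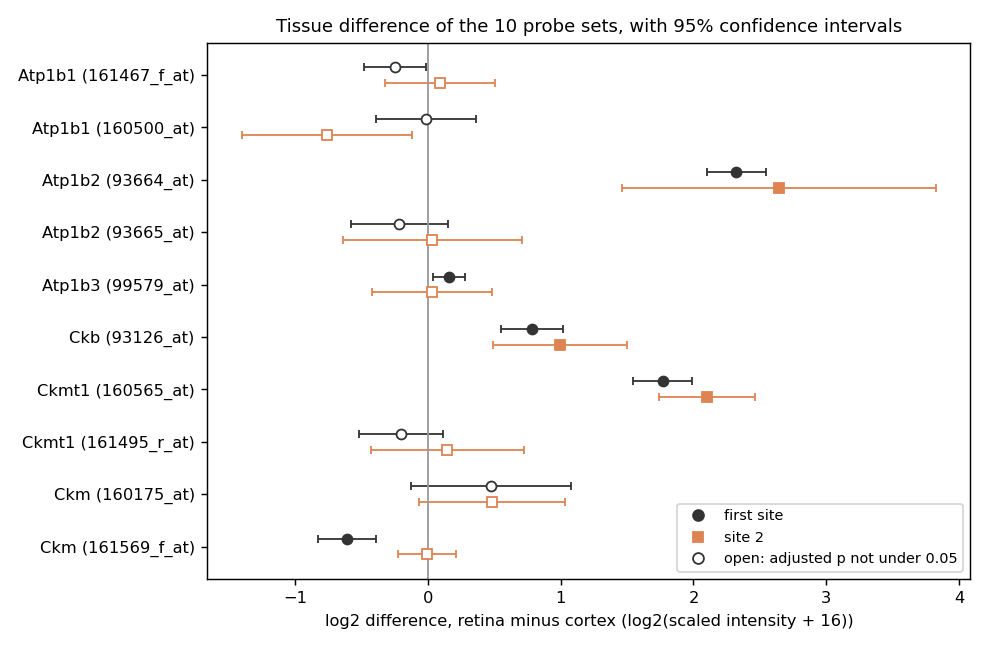
Tissue difference of each of the 10 probe sets, retina minus cortex on the log2(scaled intensity + 16) scale (horizontal axis), with its 95% confidence interval, for the first site (circles, 5 arrays per tissue) and site 2 (squares, 3 arrays per tissue). Filled symbols passed the test: 5 at the first site and 3 at site 2, with Atp1b2 at 2.32 and 2.64 farthest to the right.

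To compare isoforms on the same array, the difference in log2(scaled intensity + 16) between the leading probe sets of 2 genes, a log2 ratio, was taken within each array for 3 pairs of beta subunits and 3 pairs of creatine kinases. Probe sets differ in how strongly they bind their targets, so the ratio itself does not give relative abundance, and only its shift between tissues was tested (two-sided exact permutation test, adjusted over the 6 pairs; 5 arrays against 5 allow no p below 0.0079 and 3 against 3 none below 0.1).

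At the first site the ratio of Atp1b1 over Atp1b2 was -1.85, -1.64, -1.76, -0.92 and -1.59 in retina, against 1.09, 1.16, 1.08, 0.93 and 0.81 in cortex, a shift of -2.57 (exact p = 0.0079, adjusted p = 0.016). At site 2 it was -2.55, -1.99 and -2.65 in retina, against -0.36, 1.03 and -0.20 in cortex, a shift of -2.55 (exact p = 0.1, the smallest possible). The beta subunit readings were thus tilted towards Atp1b2 on every retina array relative to every cortex array of the same site. Atp1b2 over Atp1b3 shifted by 2.16 at the first site (exact p = 0.0079, adjusted p = 0.016) and by 2.61 at site 2 (exact p = 0.1), also without overlap. Without cortex replicate 2 of site 2, the shift of Atp1b2 over Atp1b3 was 1.82 and that of Atp1b1 over Atp1b2 was -2.11. Atp1b1 over Atp1b3 shifted by -0.41 at the first site, where 1 cortex array lay inside the range of the retina arrays (exact p = 0.016, adjusted p = 0.019). At site 2 that shift was 0.06 (exact p = 1), and -0.30 without cortex replicate 2.

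Among the creatine kinases, Ckb over Ckmt1 was 3.18, 3.32, 3.49, 3.29 and 3.77 in retina, against 4.34, 4.71, 4.27, 4.26 and 4.39 in cortex at the first site. The shift of -0.99 (exact p = 0.0079, adjusted p = 0.016) means that the leading probe set of Ckmt1 differed between the tissues by more than that of Ckb. The second Ckmt1 probe set, which passed the test at neither site, does not enter this ratio. At site 2 the ratio was 2.60, 2.58 and 2.76 in retina, against 3.88, 3.64 and 3.74 in cortex, a shift of -1.11 without overlap (exact p = 0.1). Ckmt1 over Ckm shifted by 1.29 at the first site (exact p = 0.016, adjusted p = 0.019) and by 1.62 at site 2 (exact p = 0.1). The shift at the first site did not pass at a pseudocount of 1 (1.21, adjusted p = 0.067). Ckb over Ckm shifted by 0.30 at the first site (exact p = 0.4) and by 0.51 at site 2 (exact p = 0.2). Without cortex replicate 1, the first-site shift of Ckb over Ckm was 0.59 and passed (exact permutation test, adjusted p = 0.019).

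**Figure D4:**
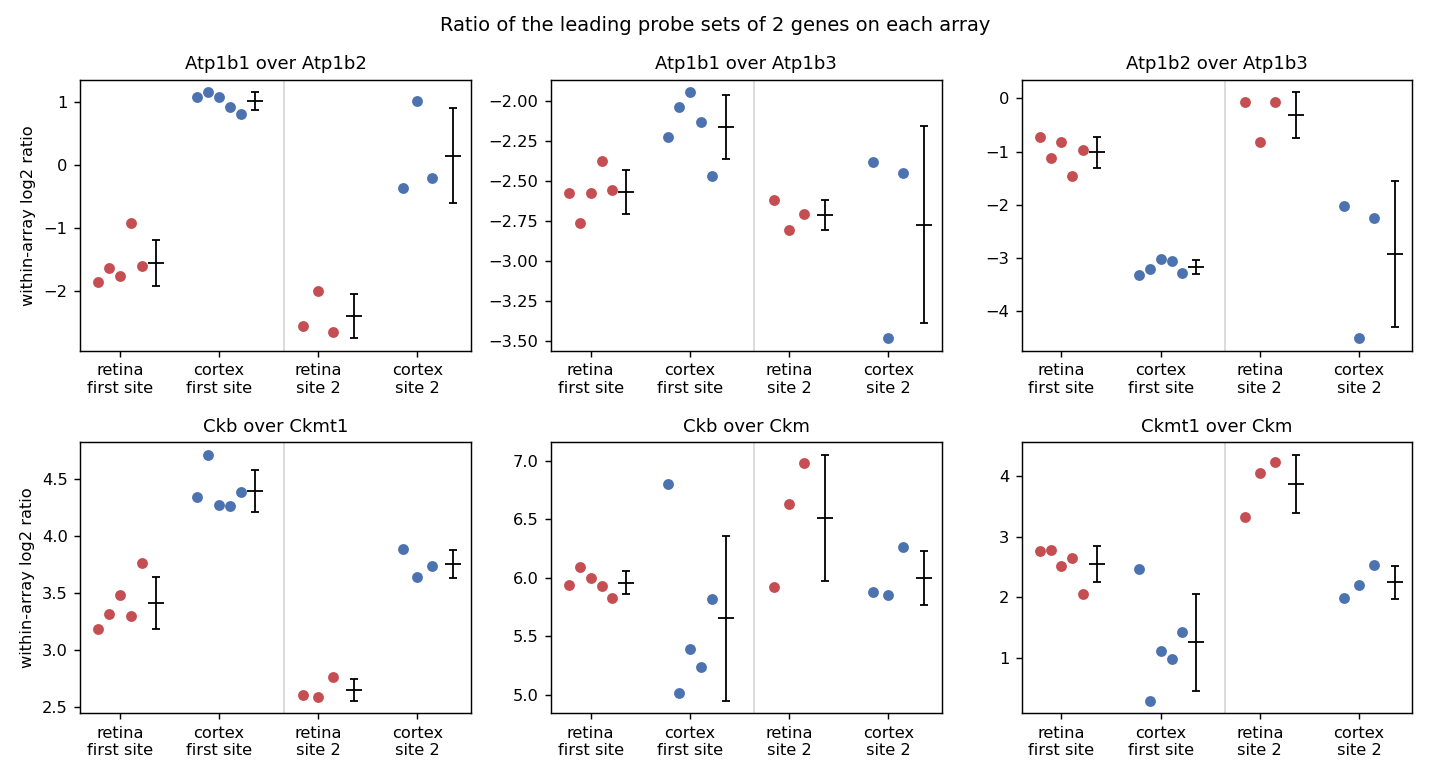
Within-array log2 ratio of the leading probe sets of 2 genes (vertical axes, which do not start at 0) for 6 pairs on the 16 arrays, retina in red left of cortex in blue at each site, with the mean ± SD of each group. The ratios of Atp1b1 over Atp1b2 and of Ckb over Ckmt1 lie lower on every retina array than on any cortex array of the same site.

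The same RNA pools were measured at both sites, so a difference between sites is a difference between sets of arrays. In retina, Ckmt1 read higher at site 2 than at the first site by 0.81 ± 0.13 (log2, SE, adjusted p = 1.3e-04) and was the only 1 of the 10 probe sets to pass the test, where 23.9% of all probe sets were higher and 13.9% lower. That call was lost without scaling of the arrays (0.75, adjusted p = 0.27). The retina difference of Atp1b2 was 0.79 ± 0.31 (adjusted p = 0.056), with all 3 arrays of site 2 above all 5 arrays of the first site. It passed without retina replicate 2 of site 2 (1.00, adjusted p = 0.046), cortex replicate 1 of site 2 (0.79, adjusted p = 0.027) or cortex replicate 2 of site 2 (0.79, adjusted p = 0.00053). The cortex arrays enter this contrast only through the shared estimate of spread. Without retina replicate 2 of site 2 the background-level Atp1b2 probe set passed as well (0.77, adjusted p = 0.022). Ckb in retina differed between sites by 0.05 ± 0.15 (interval -0.26 to 0.36) and Atp1b3 by 0.09 ± 0.11 (interval -0.15 to 0.33).

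In cortex, 1 of the 10 probe sets was higher at site 2 and 1 was lower, where 11.7% of all probe sets were higher and 7.65% lower. Ckmt1 was again the higher one, by 0.48 ± 0.13 (log2, SE, adjusted p = 0.015), and this call too was lost without scaling (0.54, adjusted p = 0.68). The lower one was the background-level Ckm probe set 161569_f_at (-0.60 ± 0.11, adjusted p = 0.0013). Leaving out cortex replicate 2 of site 2 gave Atp1b2 a site difference of 1.08 that passed the test (adjusted p = 0.00047), against 0.47 ± 0.31 (adjusted p = 0.31) with it and 0.06 without cortex replicate 1 of site 2. Leaving out cortex replicate 3 of site 2 let Atp1b3 pass at 0.35 (adjusted p = 0.044) and 160500_at of Atp1b1 at 0.75 (adjusted p = 0.026). The leading Atp1b1 probe set differed by -0.39 ± 0.14 (adjusted p = 0.061) and passed without cortex replicate 5 of the first site (-0.47, adjusted p = 0.026) or cortex replicate 1 of site 2 (-0.54, adjusted p = 0.024). It also passed with quantile normalization (-0.51, adjusted p = 0.023) and when only the probe sets above the median signal were tested (adjusted p = 0.046). The leading Ckm probe set passed without cortex replicate 1 of the first site (-0.79, adjusted p = 0.023).

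Whether the tissue difference itself differed between sites was tested as an interaction, for which 2.78% of all probe sets were called in the positive direction and 1.45% in the negative. Of the 10 probe sets, 1 passed, the background-level Ckm probe set 161569_f_at (0.61 ± 0.15, log2, SE, adjusted p = 0.031). The 6 leading probe sets did not pass. The change of the tissue difference from the first site to site 2 was 0.33 ± 0.18 for Ckmt1 (interval -0.05 to 0.71, adjusted p = 0.34), 0.21 ± 0.21 for Ckb (interval -0.23 to 0.65, adjusted p = 0.63) and 0.32 ± 0.44 for Atp1b2 (interval -0.61 to 1.25, adjusted p = 0.75). Without cortex replicate 2 of site 2 the value for Atp1b2 was -0.30 (adjusted p = 0.56).

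Replicates of the members varied to unequal degrees. On the log2 scale the within-group SD of Ckmt1 was 0.17 in retina against 0.17 in cortex for the first site, and 0.21 in retina against 0.17 in cortex for site 2. For Ckb it was 0.15 in retina against 0.21 in cortex for the first site, and 0.28 in retina against 0.09 in cortex for site 2. For Atp1b2 it was 0.24 in retina against 0.09 in cortex for the first site, and 0.37 in retina against 1.08 in cortex for site 2. The median over all 12422 probe sets was 0.16 in retina against 0.17 in cortex for the first site, and 0.14 in retina against 0.24 in cortex for site 2. For probe sets at large the cortex arrays of site 2 were thus the most variable group, while for Ckb they were the least. The SD of 1.08 for Atp1b2 rests on replicate 2, without which it was 0.28 over the remaining 2 arrays, a value computed after seeing the data.

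For the leading probe set of each gene, the 3 genes with the most similar pattern over the 16 arrays were sought among 5017 other genes with a mean above the array median, by the root mean square (RMS) difference of log2 values centred per gene. For Atp1b2 they were Camk2d (RMS 0.27), a calcium and calmodulin dependent kinase, Nr1d2 (0.29), a nuclear receptor of the circadian clock, and Dkk3 (0.34), a secreted protein of the Dickkopf family. The median RMS over the genes searched was 1.36 for Atp1b2. Ckmt1 was closest to Rmdn3 (0.12), Mcfd2 (0.12) and the neuronal surface glycoprotein Thy1 (0.14), beside a median of 1.03. Ckb was closest to Abhd16a (0.14), the membrane remodelling gene Bin1 (0.16) and Bsg (0.17), which encodes the monocarboxylate transporter partner basigin, beside a median of 0.58.

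Atp1b1 was closest to the casein kinase gene Csnk1d (0.12), the transferrin receptor gene Tfrc (0.15) and the mitochondrial ribosomal gene Mrpl11 (0.16), and Atp1b3 to the clathrin heavy chain gene Cltc (0.10), Grcc10 (0.10) and the prefoldin gene Vbp1 (0.10). These lists describe patterns shared across 2 tissues and 2 sites. For Ckm the nearest of the genes searched were Gsta2 (0.37), Tpm3 (0.38) and Ass1 (0.38), beside a median of 0.68. Its leading probe set averaged 55.5 over the 16 arrays, and genes that dim were not searched, so a closer match among them cannot be seen.

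A list of 37 other genes of the pump and of creatine and phosphate transfer was counted as a whole, and 23 of them were measured by a single-symbol probe set. The others, among them the alpha subunit genes, were not analysed here. At the first site 6 of the 23 genes were higher in retina, 6 were lower and 11 did not pass the test, where 25.8% of all 8251 genes were higher and 28.5% lower. At site 2 the counts were 5, 3 and 15, where 19.9% of all genes were higher and 17.4% lower. The median difference of the list was -0.12 at the first site and -0.05 at site 2 (log2), beside -0.02 and -0.03 over all genes.

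Among regulators of the pump, Fxyd1 (phospholemman), a small membrane protein that binds the pump and tunes its activity, averaged 595 ± 29.5 in retina against 177 ± 25.6 in cortex on the first site's arrays (SD over 5 arrays each), and 823 ± 109 in retina against 156 ± 13.3 in cortex on those of site 2 (SD over 3 arrays each). Its difference was 1.67 ± 0.09 (log2, SE, adjusted p = 3.1e-09) at the first site and 2.28 ± 0.14 (adjusted p = 3.3e-05) at site 2. Fxyd2, the gamma subunit best known in kidney, ran the other way, at -1.28 ± 0.16 (adjusted p = 1.2e-05) and -1.52 ± 0.22 (adjusted p = 0.002). Fxyd7, a brain member of the family, was lower in retina at the first site (-1.91 ± 0.20, adjusted p = 3.4e-06), while its site 2 value of -0.55 ± 0.21 did not pass the test (adjusted p = 0.087). All 5 measured Fxyd genes passed the test at the first site, 2 as higher in retina and 3 as lower. Over all genes, 25.8% were higher there and 28.5% lower. Site 2 had 2 higher, 1 lower and 2 that did not pass, where 19.9% of all genes were higher and 17.4% lower. Of the 2 higher ones, the other exceeded the top no-target control on 2 of 16 arrays. Of the 6 measured related ion pumps, 1 was lower in retina at the first site and 5 did not pass the test. The counts at site 2 were the same, but another gene was the lower one. Both counts of lower genes stand beside the shares over all genes given above.

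Of the 4 genes listed for creatine supply, 1 was higher in retina, 1 was lower and 2 did not pass the test, at each site. Over all genes, 25.8% were higher and 28.5% lower at the first site, and 19.9% and 17.4% at site 2. For 1 of the 2 that did not pass, another probe set lay above the top no-target control on all 16 arrays. It was lower in retina at the first site (-0.44, limma, adjusted p = 0.0056) but did not pass at site 2 (-0.02, adjusted p = 0.95). Gatm, which encodes the first enzyme of creatine synthesis, averaged 51.6 ± 4.6 in retina against 564 ± 60.3 in cortex on the first site's arrays, and 36.6 ± 9.1 in retina against 1109 ± 317 in cortex on those of site 2. Its difference was -3.10 ± 0.09 (adjusted p = 1.2e-11) at the first site and -4.40 ± 0.24 (log2, SE, adjusted p = 2.1e-05) at site 2. Slc6a8, the creatine transporter of the plasma membrane, averaged 399 ± 39.8 in retina against 191 ± 13.7 in cortex for the first site, and its difference was 1.00 ± 0.08 (adjusted p = 2.3e-07) there and 1.15 ± 0.16 (adjusted p = 0.0017) at site 2. The other mitochondrial creatine kinase, Ckmt2 of muscle, lay around background on all of its 3 probe sets, and the leading one exceeded the highest no-target control on 2 of 16 arrays.

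Of the 8 measured genes of phosphate transfer and nucleotide exchange, 3 were higher in retina at the first site and 1 was lower. The other 4 did not pass the test, and 25.8% of all genes were higher there and 28.5% lower. Site 2 had 2 higher, 0 lower and 6 that did not pass, where 19.9% of all genes were higher and 17.4% lower. Ak4, a mitochondrial adenylate kinase, averaged 478 ± 44.1 in retina against 108 ± 13.1 in cortex for the first site and differed by 1.99 ± 0.09 there (adjusted p = 7.6e-10). At site 2 it differed by 1.92 ± 0.15 (log2, SE, adjusted p = 1.1e-04). Slc25a5, an exchanger of ADP and ATP across the inner mitochondrial membrane, passed the test on its leading probe set as higher in retina at both sites. The difference was 0.50 ± 0.09 for the first site (adjusted p = 5e-04) and 0.86 ± 0.22 for site 2 (adjusted p = 0.022). Another of its probe sets passed at the first site (0.55, adjusted p = 8e-04) but not at site 2 (0.51, adjusted p = 0.084). The remaining one, above the top no-target control on 3 of 16 arrays, passed at neither (-0.285 and -0.684).

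**Figure D5:**
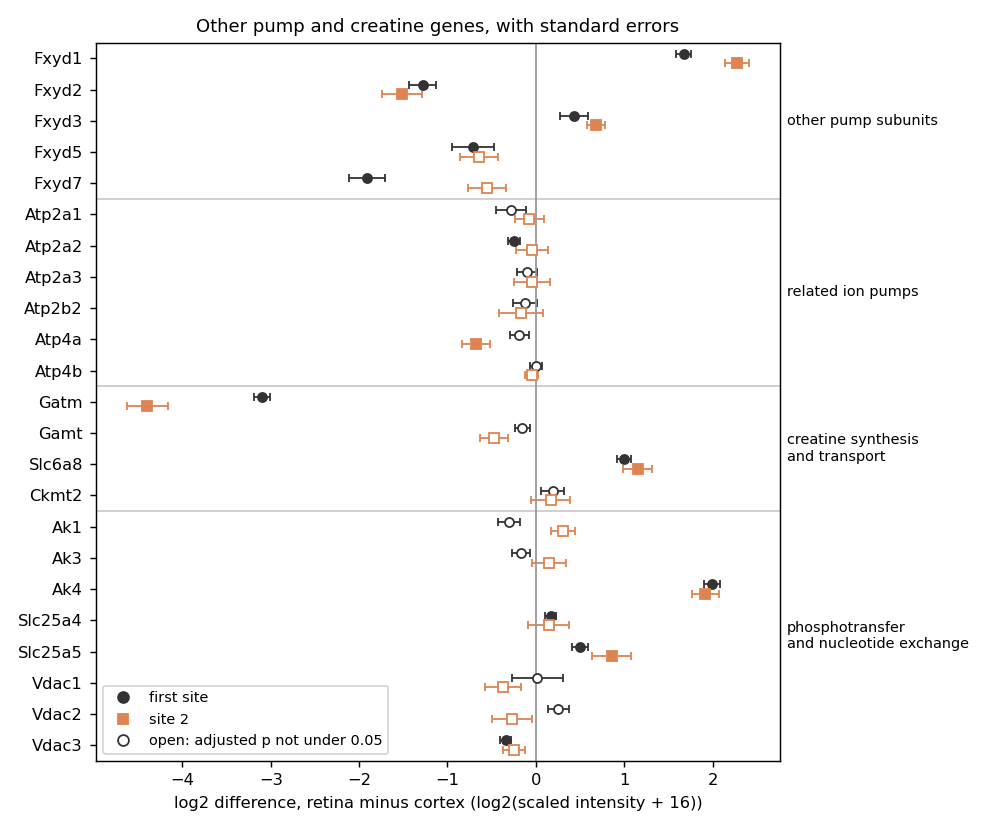
Tissue difference, retina minus cortex on the log2(scaled intensity + 16) scale (horizontal axis), of the leading probe set of 23 other genes of the pump, related ion pumps, creatine supply and phosphate transfer, with standard errors, at the first site (circles) and site 2 (squares). Filled symbols passed the test; Gatm lies farthest to the left at -3.10 and -4.40, and Fxyd1 and Ak4 lie on the right at both sites.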

How the data were processed

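Retina and cortex RNA was measured on 16 1-colour arrays. The authors deposited linear intensities, 1 per probe set and array. How probes were summarised, background handled and arrays scaled is not given in the sources used here. Of 12488 probe sets, 66 controls were left out, which leaves 12422; 10833 had 1 symbol in the platform annotation, 396 several and 1193 none, and 10817 were found by Entrez identifier in the RefSeq table of GRCm38.p6.

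From these intensities, each array was scaled to a median of 100, and log2(scaled intensity + 16) was fitted by linear models in limma 3.58.1 under R 4.3.3, with eBayes moderation that follows the intensity. Tests were two-sided, with Benjamini-Hochberg adjustment over all 12422 probe sets and a threshold of 0.05. Scaling came before the pseudocount so that it weighs alike on arrays whose brightness differs, and differences of dim probe sets are understated. Each site had a fit of its own for retina against cortex, and site contrasts and the interaction came from 1 fit over 16 arrays. Ratios within arrays were compared with exact permutation tests (scipy 1.17.1). The number of arrays limits the precision. No 2 arrays held identical values. Replicate numbers are shared between groups, but the deviations of same-numbered arrays correlated between -0.09 and 0.12, so the numbers were not taken to pair the arrays.

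Named were all probe sets of the 6 genes, the 3 genes most like each leading probe set, and up to 8 genes of the list of related genes. The members and the lists were chosen with earlier results of these data known, and no list was given a test of its own. Symbols were matched by name, and promoters come from RefSeq (GRCm38.p6): 5 of the 6 genes matched. No genome build is named for the intensities. The procedure was tested on simulated data. Alternatives were pseudocounts of 1 and 50, a pseudocount added to the deposited intensity before median centring, no scaling, quantile normalization, a restriction to probe sets brighter than the median, eBayes without the trend, a replicate block, a joint fit of 16 arrays, and each array left out in turn.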

Additional observations from a re-analysis of the deposited data

Results flagged for a closer look

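A single array stood apart from the other 4 of its group in 2 of the 20 groups of 5 arrays that were examined, by the ratio of its gap to the range of the group on the log2 scale, and chance alone gives about 1 in 20. Ckmt1 probe set 161495_r_at read 95.8 on retina replicate 5 of the first site, where its gap to the next array was 0.791 of the range. Atp1b1 probe set 160500_at read 29.0 on cortex replicate 4 of the first site, with a ratio of 0.772, in a group whose other 4 arrays were under the highest no-target control.

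The tissue difference of Ckm probe set 161569_f_at differed between sites. It was -0.61 on the arrays of the first site and -0.01 on those of site 2, and the interaction of 0.605 had an adjusted p of 0.031 (limma over all 12422 probe sets). Retina arrays of both sites and cortex arrays of site 2 lay at or under background, and the call was lost without retina replicate 3 (adjusted p = 0.057) or 4 (0.053) or cortex replicate 1 (0.053) of the first site, and without retina replicate 1 (0.052), 2 (0.068) or 3 (0.084) or cortex replicate 2 (0.053) of site 2.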

How the results depend on the processing

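Over all single probe sets and ratios under all alternatives, 1073 values kept their direction and their side of the threshold, 27 lost a call, 24 gained one and 43 changed direction. Without scaling, the count of all probe sets called was 781 for retina against cortex at site 2, 290 for site 2 against the first site in retina, 79 in cortex and 34 for the interaction, against 4033, 4704, 2401 and 525 with it, and the members called were 0 for each of the last 3. The members called between sites in retina were 2 instead of 1 at a pseudocount of 50, with the pseudocount added to the deposited intensity, and with only the brighter probe sets (above the median signal) tested. Those called between sites in cortex were 1 instead of 2 with the pseudocount added to the deposited intensity. The interaction called 0 instead of 1 at a pseudocount of 1 (adjusted p = 0.059), with the pseudocount added to the deposited intensity (0.33) and with only the brighter probe sets tested, where that probe set is not tested.

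Leaving out single arrays gave 4 to 6 members called at the first site, 2 to 4 at site 2, 1 to 3 between sites in retina, 2 to 4 in cortex and 0 to 2 for the interaction. The count of all probe sets called for the interaction ran from 274 to 804. The ratio test at the first site called 5 or 6 of 6 pairs, and at site 2 it called 0 (exact permutation test, 0 at an unadjusted p under 0.05), since 3 arrays against 3 cannot.

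The fit with the replicate number as a block called 4 members at the first site, without Atp1b3 (adjusted p = 0.073), and 4 at site 2, with 160500_at added (adjusted p = 0.029). It called 5824 probe sets at the first site, 3805 at site 2, 4139 and 1861 between sites in retina and cortex, and 353 for the interaction. At the first site 1 of 5 retina arrays correlated best with its own number, and 2 of 3 at site 2. The numbers were not taken to pair the arrays, but 3 arrays per tissue are too few to decide this for site 2.

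The following directions changed, all of differences that had not passed the test. Without scaling, 160500_at at the first site was 0.041, Ckb between sites in retina -0.014, 161569_f_at between sites in retina -0.023 and the interaction of 160175_at -0.104. With quantile normalization, 160500_at at the first site was 0.035, 161569_f_at at site 2 0.049, Atp1b3 between sites in retina -0.102 and 161495_r_at between sites in retina 0.006. The interaction of 160175_at was -0.008 at a pseudocount of 50, and 161569_f_at between sites in retina was -0.001 with the replicate block. Leaving out single arrays also turned the direction of 160500_at at the first site (-0.10 to 0.12). At site 2 it turned Atp1b1 (-0.087 to 0.239), 93665_at (-0.14 to 0.32), Atp1b3 (-0.10 to 0.21), 161569_f_at (-0.045 to 0.052) and the ratio of Atp1b1 over Atp1b3 (-0.30 to 0.26). Between sites in retina it turned Atp1b1 (-0.10 to 0.01), Ckb (-0.084 to 0.193), 161495_r_at (-0.19 to 0.16) and 161569_f_at (-0.029 to 0.025). For the interaction it turned Atp1b2 (-0.30 to 0.73), Atp1b3 (-0.26 to 0.046) and 160175_at (-0.20 to 0.29). The causes were not tested. Signal over background limits the dim probe sets 160500_at, 93665_at and 161569_f_at.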
